A study of Mus musculus with 16 samples.

Results

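The genes described here are the markers of stellate cells and pericytes and the extracellular matrix genes of isolated mouse islets, taken from a list of 38 symbols. Of these, 37 were found by symbol in both deposited expression tables, which together hold 17864 genes. The remaining symbol, Ctgf, is listed in neither table. RefSeq gives its current symbol as Ccn2, and the values of Ccn2 are given beside the others without being counted among them. The libraries come from islets, 4 libraries in each of 4 groups. On normal chow, Flox mice, homozygous for a B7-H4 allele (gene Vtcn1) with loxP sites around the second exon, were compared with B7-H4 cKO mice, which carry the same floxed allele and a Cre recombinase. The paper names this Cre as Rip-Cre, driven by the rat insulin II promoter, and the design text of the series also lists a Pdx1-driven Cre line. The controls are labelled Flox, read here as without Cre, and no group is labelled as carrying Cre alone. Deletion of B7-H4 and presence of the Cre transgene therefore cannot be told apart in this comparison. On a high-fat diet (HFD), mice that received a control virus (Ctrl) were compared with mice that received AAV2/8-Ins2-B7-H4 (OE), an adeno-associated virus that carries B7-H4 behind the insulin 2 promoter and was infused into the pancreatic duct. These mice were 6 weeks old at the start and had 8 weeks of diet before the infusion. By the paper their islets were taken some weeks after the infusion. The sources differ on whether these mice were wild type or Flox mice. The age of the chow mice is not given in the labels. Nothing in the labels says whether the 4 libraries of a group came from separate animals, so p-values measure the spread between these libraries.

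Islets hold few mesenchymal cells. Pericytes wrap the capillaries that run through the islet and share a basement membrane, built from type IV collagen, laminins and nidogen, with the endothelial cells. Stellate cells and fibroblasts lie mainly at the islet border and between acini, and they make the fibrillar collagens, the small leucine-rich proteoglycans that coat collagen fibrils, and the enzymes and inhibitors that remodel matrix. Islets freed with collagenase and picked by hand keep their capillaries and some attached exocrine tissue, so all of these genes are read in RNA from a mixture of cells. In such bulk RNA, fewer cells of a type and less RNA per cell cannot be told apart.

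The deposited values are FPKM, fragments per kilobase of transcript scaled to the mapped fragments of a library, with the Flox and cKO libraries in one table and the Ctrl and OE libraries in another. Read totals are unknown, and relative depths read from the smallest step between low values lay between 0.942 and 1.07 in the first table and between 0.840 and 1.08 in the second. Markers of β cells took 25.8% to 54.7% of the summed FPKM of the chow libraries and 4.38% to 55.1% of that of the HFD libraries. Exocrine RNA was the widest difference between libraries. A list of 22 acinar genes took 7.34% to 34.9% of the summed FPKM of the Flox libraries and 35.8% to 45.2% of the cKO libraries, without overlap. In Ctrl1, Ctrl2, Ctrl3 and Ctrl5 it took 5.36%, 55.6%, 72.3% and 2.09%, and in the OE libraries 10.8% to 14.1%. Ctrl2 and Ctrl3 therefore stood apart as acinar-rich libraries, and Ctrl3 had the lowest β-cell share. The library labelled Flox16 also stood apart. Tph1, which encodes the first enzyme of serotonin synthesis, was listed at 112 FPKM in Flox16 and at 116 to 150 FPKM in the cKO libraries, but at 0.0318 to 0.0885 FPKM in Flox17, Flox20 and Flox21. Cldn8 and Lrrc55 divided the libraries in the same way, at 164 and 42.9 FPKM in Flox16 against at most 2.02 and 0.0832 FPKM in the other Flox libraries. These 3 genes were chosen after their values were seen. By these 3 genes Flox16 resembled the cKO libraries, whereas for the members Rgs5 and Sparc it held the highest Flox values, 23.8 and 32.2 FPKM. Whether this library is from a mouse without Cre is in doubt and was not tested. The Flox means below include it. The counts of calls on chow are therefore also given without Flox16. Vtcn1 did not check the labels on chow, with 0.0188 to 0.216 FPKM in Flox and 0.0202 to 0.125 FPKM in cKO islets. In the HFD mice it was 0.0636 to 0.371 FPKM in Ctrl and 40.01, 128, 74.1 and 60.5 FPKM in OE1 to OE4.

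Members that represent the roles below are shown by the 250 bases before their RefSeq start, on the strand of the gene in build GRCm38.p6, which is the mm10 assembly named in the labels. Rgs5 (chr1:169655251-169655500, plus strand) is the leading pericyte marker and Sparc (chr11:55420081-55420330, minus strand) the most abundant glycoprotein of the list on chow. Timp3 (chr10:86300162-86300411, plus strand) is an inhibitor of matrix proteases, and Col3a1 (chr1:45311288-45311537, plus strand) and Vim (chr2:13574061-13574310, plus strand) stand for fibroblast-type cells. Capitals mark TATAAA, the letters of a TATA box, and CATTCC, the letters of the element bound by TEAD factors, each searched on both strands.
Rgs5: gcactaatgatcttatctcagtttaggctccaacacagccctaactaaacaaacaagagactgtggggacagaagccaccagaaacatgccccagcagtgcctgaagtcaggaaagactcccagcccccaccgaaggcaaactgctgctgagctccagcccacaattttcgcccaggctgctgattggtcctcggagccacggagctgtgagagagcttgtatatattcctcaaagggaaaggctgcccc
Sparc: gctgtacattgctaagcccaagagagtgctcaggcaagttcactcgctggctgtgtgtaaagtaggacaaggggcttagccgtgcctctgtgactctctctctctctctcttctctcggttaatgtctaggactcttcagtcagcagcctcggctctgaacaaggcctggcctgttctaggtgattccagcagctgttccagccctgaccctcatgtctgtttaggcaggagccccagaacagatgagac
Timp3: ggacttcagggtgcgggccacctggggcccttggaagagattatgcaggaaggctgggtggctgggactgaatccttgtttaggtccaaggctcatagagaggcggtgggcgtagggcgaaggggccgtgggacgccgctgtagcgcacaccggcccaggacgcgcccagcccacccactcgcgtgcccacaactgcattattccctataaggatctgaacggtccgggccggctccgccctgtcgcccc
Col3a1: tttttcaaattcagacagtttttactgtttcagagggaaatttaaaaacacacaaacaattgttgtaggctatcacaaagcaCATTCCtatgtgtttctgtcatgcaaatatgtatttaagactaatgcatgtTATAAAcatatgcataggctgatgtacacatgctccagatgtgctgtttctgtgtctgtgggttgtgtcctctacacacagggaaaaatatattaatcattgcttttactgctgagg
Vim: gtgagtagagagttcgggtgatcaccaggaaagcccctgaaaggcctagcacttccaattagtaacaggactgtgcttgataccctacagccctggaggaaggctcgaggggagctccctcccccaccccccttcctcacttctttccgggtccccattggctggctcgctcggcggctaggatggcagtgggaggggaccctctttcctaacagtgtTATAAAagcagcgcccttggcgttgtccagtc
Timp3 holds 18 CG dinucleotides in this window, Vim 8, Rgs5 and Sparc 4 each, and Col3a1 none, with a median of 6 over all 32851 windows of the RefSeq table. In Vim the TATAAA letters begin 32 bases before the start, and in Col3a1 they begin 117 bases and CATTCC 168 bases before it. Of the 24 members with a window in the table, 4 hold TATAAA (Col3a1, Postn, Thbs2 and Vim), against 14.3% of all genes in the table. CATTCC was found for 6 members (Acta2, Col18a1, Col3a1, Col6a2, Nid1 and Timp1), against 14.4% of all genes. The CArG box bound by serum response factor was searched only as CC, 6 letters A or T, and GG. That exact string was found for 1 member (Lama2), against 1.62% of all genes. Boxes that differ from it by a base were not counted, so a gene without a match may still hold one. None of these matches is a site shown to be used, and the windows are printed to place the genes.

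Several members are neighbours in the genome. Dcn (chr10:97479500-97518163) and Lum (chr10:97565501-97572703) lie 47337 bases apart with no annotated gene between them. Col4a1 (chr8:11198423-11312889) and Col4a2 (chr8:11312805-11449287) stand head to head on opposite strands, and Col3a1 (chr1:45311538-45349706) and Col5a2 (chr1:45374331-45503282) are next to each other with 24624 bases between them. The neighbours Col4a1 and Col4a2 kept a ratio of FPKM between 1.09 and 1.96 in all 16 libraries, while the ratio of Col5a2 to Col3a1 ran from 0.106 to 0.989.

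Together the 37 members took a very small part of the RNA. Their summed FPKM was 206, 187, 285 and 317 in Flox16, Flox17, Flox20 and Flox21 and 145, 124, 159 and 131 in cKO8, cKO9, cKO12 and cKO38, or 0.0240% to 0.0462% and 0.0162% to 0.0213% of the total. In the HFD mice it was 482, 128, 193 and 838 in Ctrl1, Ctrl2, Ctrl3 and Ctrl5, and 214, 273, 257 and 248 in OE1 to OE4. All 4 cKO libraries lay below all 4 Flox libraries, whereas the Ctrl libraries lay on both sides of the OE libraries. Levels per length differed widely among members. Timp3, Sparc, Rgs5, Col4a1 and Serping1 had group means above 9 FPKM in every group, and Col5a1, Thbs2, Timp1 and Lox stayed below 1 FPKM in every library. Col1a1, a main chain of the type I collagen of scar tissue, had group means of 1.25 to 2.68 FPKM.

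**Figure D1:**
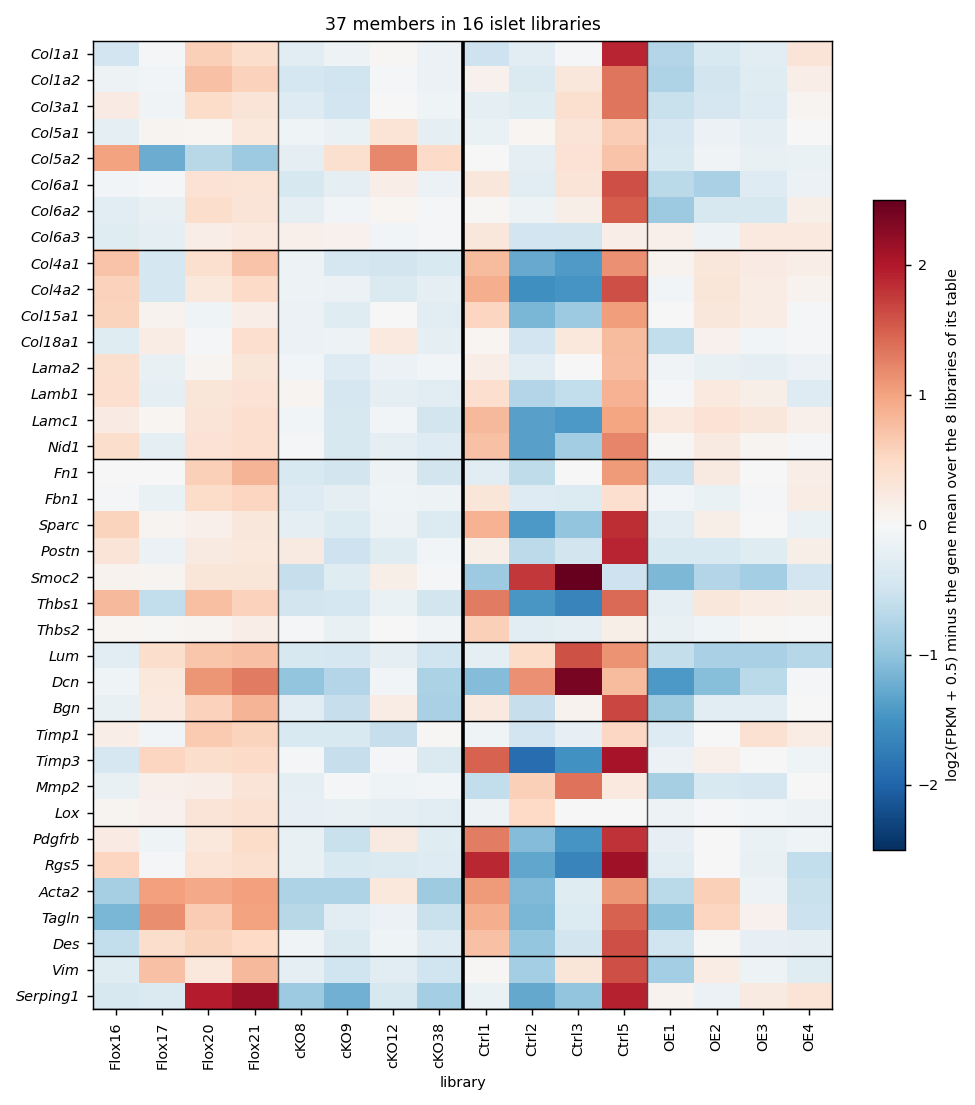
Each row is a member and each column a library, coloured by log2(FPKM + 0.5) minus the mean of that gene over the 8 libraries of its table, with horizontal lines between roles and the thick line between the tables. The Flox20 and Flox21 columns are the warmest on chow, Col5a2 is warm in Flox16 and the cKO libraries, and Ctrl2 and Ctrl3 are cold for basement membrane and pericyte genes and warm for Dcn, Smoc2 and Mmp2.

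In the comparison of cKO with Flox islets, 7 members fell in cKO islets at an adjusted p under 0.05, namely the proteoglycans Lum, Dcn and Bgn, the pericyte marker Rgs5, the collagen Col4a1, the glycoprotein Sparc and the intermediate filament Vim. None rose. Only Dcn also passed the fold threshold of an absolute log2 fold change over 1, that is a doubling or halving. These tests were made with limma on log2(FPKM + 0.5), where a log2 change is given with its standard error (SE), two-sided, with adjustment over every gene that reached 0.5 FPKM on average, as 28 of the 37 members and 11804 genes in all did. Among those genes 1.31% were called with the fold threshold, in either direction, and at an adjusted p under 0.05 12.8% were lower and 1.02% higher. At an unadjusted p under 0.05, 14 of the 28 members were lower and 0 higher, against 38.3% and 3.12% of all genes. The share of members called with the fold threshold was thus close to that background. The 7 of 28 at an adjusted p under 0.05 was above 12.8%, although the members that passed the level filter are not all members. That comparison changed with the libraries and the scale used. Without Flox16 10 of 28 were lower, against 21.3% of all genes. With the 3 libraries per group of the paper's heatmaps 15 of 28 were lower, a smaller share than the 63.5% of all genes. After division of each library by its median-of-ratios factor no member passed. The members were also chosen with earlier results of these data known. The median log2 fold change was -0.50 over the 28 members and -0.34 over all genes tested, so that the members lay 0.16 lower than genes in general. Of the 28, 26 had a negative and 2 a positive fold change, and 21 lay below the median of all genes. The values of cKO and Flox did not overlap, with cKO lower, for 3 of the tested members (Sparc, Rgs5 and Lamc1), against 15.4% of all genes tested, and for none with cKO higher, against 1.32%.

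The small leucine-rich proteoglycans, which bind collagen fibrils, all fell, 3 of 3. Dcn, the gene of decorin, was 4.74, 6.28, 11.7 and 13.3 FPKM in Flox16, Flox17, Flox20 and Flox21, and 2.36, 2.90, 4.88 and 2.77 FPKM in cKO8, cKO9, cKO12 and cKO38. The groups overlapped by Flox16 and cKO12 alone. The means were 8.997 ± 4.13 FPKM in Flox and 3.23 ± 1.12 FPKM in cKO islets (SD, n = 4 each), a log2 change of -1.28 ± 0.31 (SE, limma adjusted p = 0.0309). Lum, the gene of lumican, was 0.583, 1.29, 1.62 and 1.69 FPKM in the Flox libraries and 0.494, 0.480, 0.608 and 0.429 FPKM in the cKO libraries. Flox16 was again at the cKO level. For Lum the log2 change was -0.79 ± 0.21 (SE, adjusted p = 0.0294). Bgn, the gene of biglycan, was 4.84, 6.67, 8.51 and 10.4 FPKM in Flox and 4.46, 3.58, 6.35 and 2.93 FPKM in cKO libraries, with a log2 change of -0.75 ± 0.24 (SE, adjusted p = 0.0466). The lowest Flox library and the highest cKO library overlapped for Bgn.

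Among the 5 pericyte and contractile members, 1 fell. Rgs5, a regulator of G-protein signalling and a pericyte marker, was 23.8, 15.8, 20.7 and 21.5 FPKM in Flox and 14.2, 12.4, 12.6 and 12.9 FPKM in cKO libraries. Every cKO library was below every Flox library. Its means of 20.5 ± 3.37 and 13.0 ± 0.811 FPKM (SD, n = 4 each) gave a log2 change of -0.62 ± 0.18 (SE, adjusted p = 0.0319). Acta2, smooth muscle actin, which marks contractile mural cells and activated stellate cells, had another pattern. It was 0.842 FPKM in Flox16 and 4.32, 4.09 and 4.36 FPKM in the other Flox libraries, and 0.886, 0.902, 2.34 and 0.785 FPKM in the cKO libraries. Flox16 thus lay within the cKO range, and the log2 change of -1.09 ± 0.49 (SE) had an adjusted p of 0.134. Tagln, transgelin of the same contractile apparatus, was 0.983 FPKM in Flox16, 4.52 to 6.77 FPKM in the other Flox libraries and 1.5 to 2.45 FPKM in the cKO libraries. The PDGF receptor Pdgfrb and the filament gene Des had log2 fold changes of -0.41 and -0.43 and did not pass the test.

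**Figure D2:**
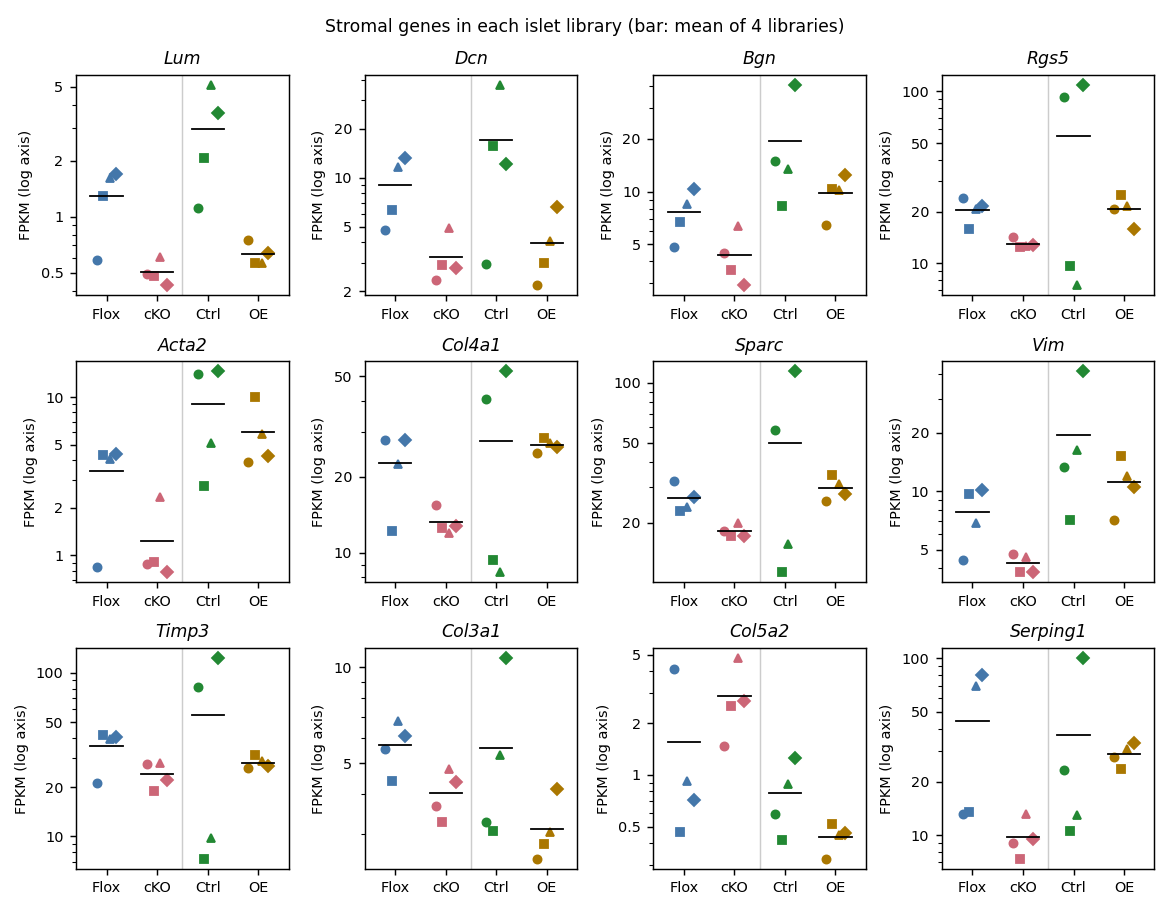
Values of 12 members in FPKM on logarithmic axes, 1 point per library and a bar for the mean of 4, with the marker shape following the order in which the libraries of a group are named in the text. Rgs5 and Sparc separate Flox from cKO without overlap, Flox16 (circle) lies with the cKO libraries for Lum, Acta2, Vim, Timp3 and Col5a2, and the Ctrl points spread far beyond the OE points.

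The basement membrane genes had lower mean values in cKO islets for all 7 tested, of which 1 passed the test. Col4a1, a chain of the type IV collagen network, was 27.9, 12.2, 22.4 and 28.0 FPKM in Flox and 15.5, 12.6, 12.1 and 12.8 FPKM in cKO libraries, a log2 change of -0.69 ± 0.22 (SE, adjusted p = 0.0465). The groups overlapped through Flox17, the Flox library with the highest acinar share. Lamc1, the laminin γ1 chain, did not overlap, at 5.97 to 7.89 FPKM in Flox and 4.03 to 5.46 FPKM in cKO libraries, but its adjusted p was 0.0604. The other basement membrane members (Col4a2, Col15a1, Col18a1, Lamb1 and Nid1) had log2 fold changes of -0.50 to -0.14, with adjusted p-values from 0.0743 to 0.574.

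Of the matrix glycoproteins, Sparc, a collagen-binding protein that is also made by capillaries, fell. It was 32.2, 23.0, 23.9 and 26.8 FPKM in Flox and 18.3, 17.2, 19.9 and 17.1 FPKM in cKO libraries, without overlap, with a log2 change of -0.52 ± 0.17 (SE, adjusted p = 0.0447). Thbs1, thrombospondin 1, was 10.1, 3.42, 9.64 and 8.42 FPKM in Flox and 3.88, 3.94, 4.87 and 3.85 FPKM in cKO libraries. Flox17 was the lowest of all 8, and the log2 change of -0.76 ± 0.27 (SE) had an adjusted p of 0.0595. Postn, periostin, had a log2 fold change of -0.33 and an adjusted p of 0.199.

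The fibrillar and associated collagens did not pass the test in either direction. Col3a1, the type III collagen of loose connective tissue, was 5.54, 4.42, 6.76 and 6.10 FPKM in Flox and 3.68, 3.28, 4.81 and 4.38 FPKM in cKO libraries, with a log2 change of -0.45 ± 0.19 (SE, adjusted p = 0.0905). Col1a1, Col1a2, Col6a1, Col6a2 and Col6a3 had log2 fold changes between -0.56 and 0.07. Col5a2, a chain of the type V collagen that nucleates fibrils, went the other way. It was 4.14 FPKM in Flox16, 0.467, 0.921 and 0.715 FPKM in Flox17, Flox20 and Flox21, and 1.46, 2.52, 4.76 and 2.70 FPKM in the cKO libraries. Flox16 was again within the cKO range, and the log2 change of 0.92 ± 0.56 (SE) had an adjusted p of 0.229. Relative to its genomic neighbour Col3a1, Col5a2 stood at 0.747 in Flox16 and 0.398 to 0.989 in the cKO libraries, against 0.106 to 0.136 in the other Flox libraries and 0.110 to 0.184 in the HFD libraries. Col5a1, the partner chain of Col5a2, was 0.153 FPKM in Flox16, the lowest of the 8 chow libraries.

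The remaining tested members were Timp3, Vim and Serping1. Timp3 was 21.4 FPKM in Flox16, 41.8, 39.4 and 40.5 FPKM in the other Flox libraries and 27.9, 19.0, 27.9 and 22.2 FPKM in the cKO libraries, with a log2 change of -0.52 ± 0.21 (SE, adjusted p = 0.0778). Vim, vimentin, was 4.44, 9.64, 6.86 and 10.2 FPKM in Flox and 4.76, 3.84, 4.55 and 3.85 FPKM in cKO libraries. Its log2 change was -0.74 ± 0.22 (SE, adjusted p = 0.0362), with Flox16 inside the cKO range. Serping1, the C1 inhibitor of the complement system, divided the Flox libraries themselves, with 13.2, 13.5, 69.7 and 80.2 FPKM, against 9.05, 7.35, 13.2 and 9.47 FPKM in the cKO libraries. The log2 fold change of -1.68 had a standard error of 0.71 and an adjusted p of 0.126. Ccn2, connective tissue growth factor, was 2.76 to 5.40 FPKM in Flox and 2.40 to 3.52 FPKM in cKO libraries (log2 fold change -0.45, adjusted p = 0.117).

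The 9 members under the level filter on chow were Col5a1, Fn1, Fbn1, Smoc2, Thbs2, Lama2, Timp1, Mmp2 and Lox. Their mean over 4 libraries was lower in cKO than in Flox islets for each of them, and the groups did not overlap for Fn1, Thbs2 and Lox. With every gene above 0 FPKM counted, 6 of the 37 members did not overlap, all lower, against 11.7% of all genes. Fn1, fibronectin, was 0.314 to 0.985 FPKM in Flox and 0.0938 to 0.251 FPKM in cKO libraries. Lox, which crosslinks collagen and elastin, was 0.189 to 0.358 FPKM in Flox and 0.0451 to 0.0801 FPKM in cKO libraries. No test was made on these low values.

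**Figure D3:**
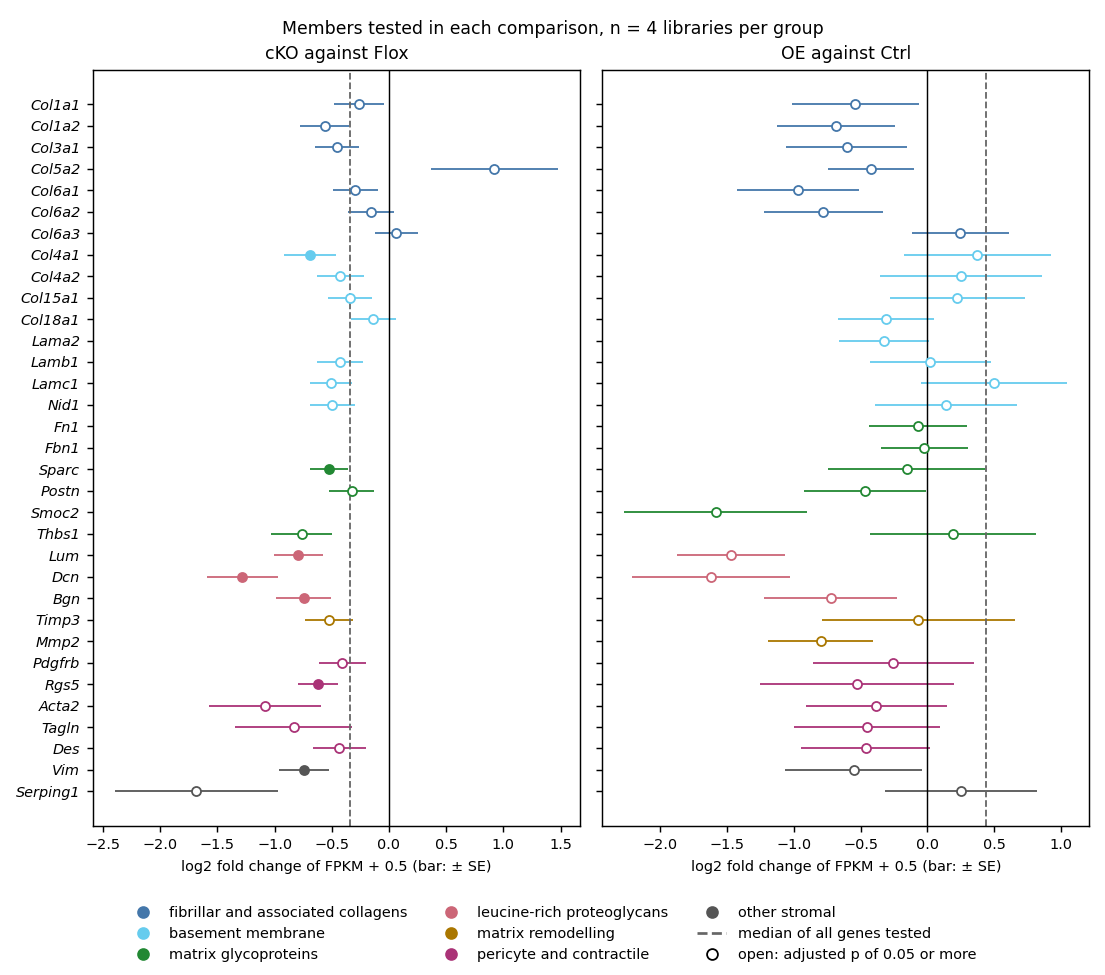
Log2 fold changes of FPKM + 0.5 with standard errors, for the 28 members tested between cKO and Flox islets and the 33 tested between OE and Ctrl islets, coloured by role, with filled points for an adjusted p under 0.05 and a dashed line at the median of all genes tested. On the left 7 points are filled, all of them below 0, and on the right none is, while 32 of 33 points lie to the left of the dashed line.

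Leaving out Flox16 changed which members were called. Without it 5 of 28 members were called with the fold threshold, of which Dcn, Lum, Acta2 and Tagln fell and Col5a2 rose, and 10 were lower and 1 higher at an adjusted p under 0.05. More genes were called in general, with 2.82% of all genes tested lower and 1.34% higher with the fold threshold, and 21.3% lower and 2.95% higher without it. The groups then did not overlap for 12 members with cKO lower and for Col5a2 with cKO higher, against 20.9% and 3.86% of all genes. Acta2 then had a log2 fold change of -1.54 (adjusted p = 1.27e-05), Col5a2 of 1.41 (adjusted p = 0.000435) and Dcn of -1.53 (adjusted p = 6.59e-05), whereas Sparc (adjusted p = 0.0948) and Col4a1 (adjusted p = 0.0605) no longer passed. Flox16 was singled out after the data were seen, and it lay within the cKO range for Acta2 and Col5a2. These p-values are therefore no independent support. With any other library left out, the limma adjusted p of Acta2 was 0.114 to 0.335. Without Flox20, Flox21, cKO9 or cKO38 no member was called or had an adjusted p under 0.05. Few genes in general had one in these settings, 1.16%, 1.21%, 0.161% and 0.751% of all genes. Without cKO12 only Bgn and Dcn among the members had one, against 3.09% of all genes. The calls also depended on scale. Since the median of all genes was -0.34, division of each library by its median-of-ratios factor brought it to -0.00. No member then passed at an adjusted p under 0.05, and of all genes 1.25% were lower and 1.13% higher. No member kept its groups apart with cKO lower, and Col6a3 did so with cKO higher. Dcn kept -0.93 (adjusted p = 0.0886), Lum -0.55 (adjusted p = 0.111), Rgs5 -0.25 (adjusted p = 0.166) and Sparc -0.15 (adjusted p = 0.540). The acinar share, which was higher in every cKO than in every Flox library, moved with these results. With that share as a covariate none of the 11804 genes passed, members included, and the log2 fold change of Dcn was -0.45 (adjusted p = 0.803). Since the share alone separated the groups, group and share cannot be told apart by this fit, and the loss of calls has no reading for the members.

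Endothelial genes had lower values in cKO islets, as the pericyte and basement membrane members did. Of 11 endothelial markers tested, 8 fell in cKO islets, against 12.8% of all genes, and the other 3 had negative values. Without Flox16 9 of 11 fell, with median-of-ratios scaling 3, and with the acinar share as a covariate none. The list summed to 127 to 224 FPKM in Flox and 96.6 to 131 FPKM in cKO libraries, with the single marker Cldn5 at 0 in some chow library. Pecam1, the endothelial adhesion molecule CD31, fell by 0.94 on the log2 scale (standard error 0.19, adjusted p = 0.0148). Per unit of Pecam1, Rgs5 was higher in every cKO than in every Flox library, with ratios of 1.22 to 1.67 in Flox and 1.73 to 1.95 in cKO libraries. Whether the number of capillaries in the preparations differed was not tested.

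Other genes of the same pathways were counted from lists, to be read against the 12.8% of all genes that were lower and the 1.02% that were higher at an adjusted p under 0.05. Among markers of fibroblasts and stellate cells outside the members, 5 of 7 tested fell, led by Dpt (dermatopontin, log2 fold change -1.18, adjusted p = 0.0159) and Mgp (matrix Gla protein, -0.85, adjusted p = 0.0162). Of the collagen processing genes 5 of 10 fell, led by Serpinh1, the collagen chaperone (-0.97, adjusted p = 0.0151), and P4ha2, a collagen prolyl hydroxylase (-1.04, adjusted p = 0.0155). The TGF-β, matrix receptor and other pericyte lists were near or below that share. In the TGF-β pathway 2 of 14 fell, Skil (-0.82, adjusted p = 0.0341) and the receptor Tgfbr1 (-0.57, adjusted p = 0.0425). Of the matrix receptors 1 of 12 fell, the collagen-binding integrin Itga1 (-0.76, adjusted p = 0.0273), and of the other pericyte and smooth muscle markers 1 of 9, Mcam (-0.57, adjusted p = 0.0436). The protease list gave 2 of 4, Timp2 (-0.76, adjusted p = 0.0277) and Mmp14 (-0.69, adjusted p = 0.0372), and no PDGF ligand or receptor of 3 tested passed. The other basement membrane genes differed, with none of 10 falling and 2 rising, Col7a1 (1.06, adjusted p = 0.0194) and Lamb3 (0.72, adjusted p = 0.0397), a collagen and a laminin chain of epithelia. Without Flox16 the counts that fell were 6 of 7 fibroblast and stellate, 6 of 10 collagen processing, 5 of 14 TGF-β pathway, 5 of 12 matrix receptor, 3 of 9 other pericyte, 2 of 4 protease and 1 of 10 other basement membrane genes, with 21.3% of all genes lower. With median-of-ratios scaling 2 collagen processing genes were lower and no gene of the other matrix lists passed.

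In the HFD mice no member passed the limma test between OE and Ctrl islets, with or without a fold threshold. Of the 33 members tested, 24 had negative and 9 positive log2 fold changes, with a median of -0.38, while the median of all 12132 genes tested was 0.44. The members thus lay 0.82 below genes in general, and 32 of 33 were below the median of all genes, the exception being Lamc1. This was not particular to the members. Relative to all genes, the medians of acinar, duct and macrophage lists were -0.83, -0.80 and -0.72. Lists above all genes were β-cell (0.68), Schwann (0.52), immediate early (0.15), matrix receptor (0.052) and collagen processing genes (0.046). The smallest adjusted p among members was 0.591. At an unadjusted p under 0.05, 4 members were lower (Lum, Dcn, Smoc2 and Col6a1) and none was higher, where 0.833% of all genes were lower and 5.58% higher. Only 0.033% of all genes were called with the fold threshold, and these 4 genes, all higher and Vtcn1 among them, were also the only ones with an adjusted p under 0.05. The groups did not overlap for 1 member, Lum, with OE lower, against 0.964% of all genes, and for none with OE higher, against 5.61%. Ctrl libraries differed more from each other than OE libraries did, as the median standard deviation of members on the log2 scale was 1.08 in Ctrl and 0.24 in OE libraries. Genes in general did the same, with medians of 0.90 in Ctrl and 0.12 in OE libraries over all genes tested.

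Lum was 1.11, 2.06, 5.13 and 3.59 FPKM in Ctrl1, Ctrl2, Ctrl3 and Ctrl5 and 0.746, 0.562, 0.562 and 0.639 FPKM in OE1 to OE4. Every OE library was below every Ctrl library. The log2 change was -1.47 ± 0.40 (SE, unadjusted p = 0.00155, adjusted p = 0.591), and it lay between -1.96 and -1.18 in the alternatives that kept both pairs of Ctrl libraries in part, with adjusted p-values from 0.0688 to 0.889. Without the acinar-rich Ctrl2 and Ctrl3 it was -1.19 (adjusted p = 0.0378) and without Ctrl1 and Ctrl5 -1.76 (adjusted p = 0.000985), a direction that the lack of overlap fixes. Dcn was 2.93, 15.7, 37.4 and 12.2 FPKM in Ctrl and 2.18, 2.98, 4.06 and 6.56 FPKM in OE libraries. Ctrl1 lay within the OE range, and the log2 change was -1.62 ± 0.59 (SE, adjusted p = 0.591). Bgn, the third proteoglycan, was 15.0, 8.25, 13.4 and 40.9 FPKM in Ctrl and 6.47, 10.3, 10.2 and 12.4 FPKM in OE libraries, with a log2 change of -0.72 ± 0.50 (SE).

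Smoc2 and Mmp2 marked the acinar-rich Ctrl libraries. Smoc2, a matricellular calcium-binding protein, was 0.226 FPKM in Ctrl1, 4.19 in Ctrl2, 9.26 in Ctrl3 and 0.455 in Ctrl5, and 0.131, 0.328, 0.258 and 0.486 FPKM in OE1 to OE4. Its log2 change of -1.59 ± 0.68 (SE, adjusted p = 0.591) had Ctrl1 and Ctrl5 within the OE range and Ctrl2 and Ctrl3 far above it. Mmp2, a gelatinase, was 0.317, 1.39, 2.71 and 0.983 FPKM in Ctrl and 0.206 to 0.764 FPKM in OE libraries (-0.80 ± 0.39, SE).

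The pericyte and basement membrane members showed the opposite order of the Ctrl libraries. Rgs5 was 92.7 FPKM in Ctrl1, 9.71 in Ctrl2, 7.49 in Ctrl3 and 109 in Ctrl5, and 20.6, 25.0, 21.7 and 15.9 FPKM in OE1 to OE4. All OE libraries lay between the 2 high and the 2 low Ctrl libraries. Timp3 was 81.5, 7.31, 9.84 and 123 FPKM in Ctrl and 26.1 to 31.4 FPKM in OE libraries, and Col4a1 40.8, 9.40, 8.42 and 52.4 FPKM in Ctrl and 24.8 to 28.5 FPKM in OE libraries. The same held for Sparc, at 57.9, 11.3, 15.7 and 114 FPKM in Ctrl and 25.7 to 34.7 FPKM in OE libraries. In all, 22 of 37 members were higher in both Ctrl1 and Ctrl5 than in Ctrl2 and Ctrl3, 3 were lower in both (Dcn, Smoc2 and Mmp2), and for 13 every OE library lay between the high and the low pair. Genes in general had the same order, since 91.8% of the 12132 genes tested were higher in both Ctrl1 and Ctrl5, 3.2% were lower in both, and 35.5% had every OE library between the pairs. The 22 of 37 members were thus a smaller share than that of all genes. Ctrl5 held the highest of the 8 values for 30 members and no OE library did for any, against 43.2% and 21.6% of all genes.

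**Figure D4:**
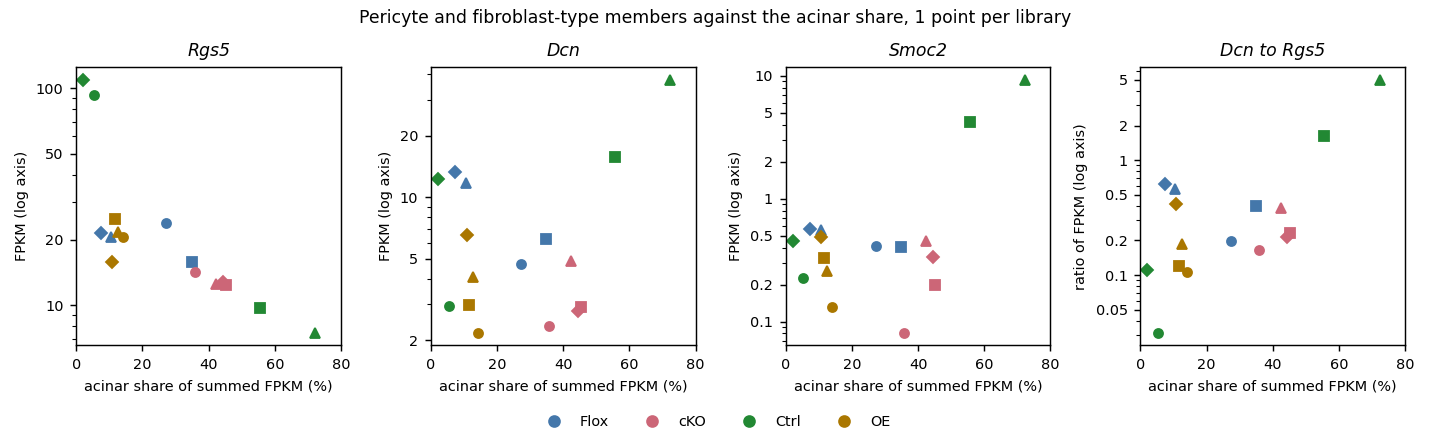
FPKM of Rgs5, Dcn and Smoc2 and the ratio of Dcn to Rgs5, on logarithmic axes, against the share of the summed FPKM taken by 22 acinar genes, 1 point per library, with levels of the 2 tables set side by side although they were normalised separately. Ctrl2 and Ctrl3, at 55.6% and 72.3%, have the lowest Rgs5 and the highest Dcn and Smoc2, with ratios of 1.61 and 4.996, and Ctrl1 and Ctrl5 have the highest Rgs5.

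The ratio of Dcn to Rgs5, which needs no scaling between libraries, was 0.0316, 1.61, 4.996 and 0.112 in Ctrl1, Ctrl2, Ctrl3 and Ctrl5 and 0.106 to 0.414 in the OE libraries. On chow it was 0.199 to 0.618 in Flox and 0.166 to 0.387 in cKO libraries. The ratio thus had a wider range among the Ctrl libraries than over all 8 chow libraries. Endothelial genes followed the pericyte members, with a summed level of 551, 84.9, 114 and 871 FPKM in the Ctrl libraries and 243 to 307 FPKM in the OE libraries. The part of exocrine tissue and of capillaries in the preparations in these differences was not tested.

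Among the collagens, Col6a1, a chain of the beaded-filament type VI collagen, was 4.79, 3.09, 4.92 and 12.7 FPKM in Ctrl and 2.21, 1.99, 2.98 and 3.41 FPKM in OE libraries (-0.97 ± 0.46, SE, unadjusted p = 0.0458 from limma). Col3a1 and Col5a2 had log2 fold changes of -0.61 and -0.42, and 6 of the 7 fibrillar and associated collagens tested had negative values, Col6a3 being the exception. Of the 8 basement membrane members, 6 had positive values, which is where the median of all genes also lay, led by Lamc1 with 13.9, 2.71, 2.56 and 15.9 FPKM in Ctrl and 8.51 to 10.02 FPKM in OE libraries (0.50 ± 0.55, SE). Thbs1 was 22.1, 2.85, 2.44 and 24.2 FPKM in Ctrl and 7.27 to 10.7 FPKM in OE libraries, and Acta2 14.0, 2.74, 5.15 and 14.5 FPKM in Ctrl and 3.88 to 10.02 FPKM in OE libraries. Vim and Serping1 had their highest values in Ctrl5, 41.5 and 100 FPKM, against 7.07 to 15.1 and 23.6 to 33.0 FPKM in OE libraries, and Ccn2 was 2.17 to 21.3 FPKM in Ctrl and 3.72 to 5.23 FPKM in OE libraries. The 4 members not tested in this table were Col5a1, Thbs2, Timp1 and Lox.

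The calls depended on which Ctrl libraries were used. Without Ctrl2 and Ctrl3, 12 of 32 members were called, against 4.61% of all genes lower and 0.658% higher, and all 12 fell in OE islets, among them Rgs5 (-2.27, adjusted p = 0.00309), Timp3 (-1.81, adjusted p = 0.00324), Pdgfrb and Acta2. Without Ctrl1 and Ctrl5, 60.7% of all genes were called higher and 2.36% lower, with a median of 1.14 over all genes. Of 32 members 15 were called in this setting, of which 11 rose, a smaller share than that of all genes, among them Rgs5 (1.22, adjusted p = 0.00184), Timp3 (1.67, adjusted p = 0.000800) and Pdgfrb, and 4 fell (Dcn, Lum, Mmp2 and Smoc2). These 2 sets of libraries were chosen after the data were seen. The median of the members minus that of all genes was -0.81 in the first and -0.74 in the second. With the acinar share as a covariate, Rgs5 (-1.74, adjusted p = 0.00929), Timp3 (-1.25, adjusted p = 0.0435) and Pdgfrb were called and fell, against 1.69% of all genes lower and 0.404% higher, and the fit then rests on a linear relation with that share.

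No gene of the other matrix lists passed in the HFD mice. The fibroblast and stellate markers outside the members had negative values for 9 of 9, led by Dpt (-1.56 ± 0.46, SE, adjusted p = 0.591), and the other pericyte and smooth muscle markers for 7 of 10. Values were negative for 4 of 12 collagen processing genes, 4 of 15 TGF-β pathway genes, 5 of 14 matrix receptors, 2 of 5 proteases and inhibitors, 2 of 3 PDGF genes and 6 of 9 other basement membrane genes. The endothelial list had 5 negative values of 11.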

How the data were processed

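Islet RNA from 16 libraries was sequenced on an Illumina NovaSeq platform, and the authors deposited FPKM values per gene in 2 tables, which were normalised separately. The submitters' processing notes name mm10. The aligner and the counting tool are not given in the sources used here, and FPKM are not counts, so depth in reads and counting error are unknown. Groups were taken from the sample labels and columns from their names. Within each table, limma 3.58.1 (R 4.3.3) compared the groups on log2(FPKM + 0.5) with trend and robust empirical Bayes, two-sided, for genes averaging 0.5 FPKM or more across the 8 libraries, with Benjamini-Hochberg adjustment over all of them. A fold change on this scale understates the change of low genes. All 4 libraries per group were used, and the paper's heatmaps show 3. Members and lists were chosen with earlier results of these data known. Values per library are given for members with an adjusted p under 0.05 or with the highest level or largest fold change of their role, and for Smoc2. From other lists the 2 genes with the smallest p are named. The remaining lists were duct, macrophage, adipocyte, Schwann, mesothelial, β-cell and immediate early genes. Promoter windows come from RefSeq (GRCm38.p6). Alternatives were pseudocounts of 1 and 0.1, level minima of 0 and 1 FPKM, 2 scalings, plain empirical Bayes, the replicate number as a block, the acinar share as a covariate, the heatmap libraries and each library left out.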

Additional observations from a re-analysis of the deposited data

Results flagged for a closer look

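Each of 17 members named with values per library was examined in each group of 4 libraries for a highest or lowest library far from the other 3, measured as the gap to the next value over the range of the group. Of 68 such gene and group pairs, 6 exceeded the Dixon critical value, and about 1 in 20 groups does so by chance. Flox16 was the far library for 3 members, with Col5a2 at 4.14 FPKM against 0.467 to 0.921 FPKM in the other Flox libraries, Timp3 at 21.4 FPKM against 39.4 to 41.8 FPKM, and Acta2 at 0.842 FPKM against 4.09 to 4.36 FPKM. In each case Flox16 lay on the side of the cKO libraries. In cKO12, Acta2 was 2.34 FPKM against 0.785 to 0.902 FPKM in the other cKO libraries, and Thbs1 was 4.87 FPKM against 3.85 to 3.94 FPKM. In Ctrl5, Serping1 was 100.01 FPKM against 10.5 to 23.2 FPKM in the other Ctrl libraries.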

How the results depend on the processing

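In cKO against Flox islets 1 member was called (0.974% of all genes lower), and 7 passed without a fold minimum (12.8%). The count called was 2 with a pseudocount of 0.1 (2.01%) and 4 with the heatmap libraries (4.63%), all lower. It was 0 with every gene above 0 FPKM and with the acinar share as a covariate, where no gene was called. With median-of-ratios scaling it was 0 (0.306% of all genes called), as with scaling to the summed FPKM outside the acinar list (0.448%). Leaving out 1 library gave 0 to 5 (0.152% to 4.29% of all genes called), with the 5 found without Flox16 (4.16%). The 7 members with an adjusted p under 0.05 became 3 without trend and robust fitting (8.25% of all genes lower) and 15 with the heatmap libraries (63.5%). With 1 library left out they numbered 0 to 16 (0.144% to 57.2% of all genes lower). The members' median log2 fold change was -0.15 with median-of-ratios scaling, -0.089 with acinar scaling and -0.084 with the covariate, and -0.58 to -0.44 with 1 library left out. Members without overlap of the groups numbered 6 with every gene above 0 FPKM (11.7% of all genes) and 10 with the heatmap libraries (66.6%), all lower. With median-of-ratios scaling there was 1, which was higher (6.86% of all genes). With 1 library left out there were 3 to 13. The 13 were found without Flox16, 12 of them lower (20.9% of all genes) and 1 higher (3.86%). Without cKO12 there were 12, all lower (17.9%), and without Flox17 9, all lower (51.7%). Col6a1 changed sign with median-of-ratios scaling (0.016) and acinar scaling (0.068), and Serping1 with the covariate (0.39). Same-numbered libraries did not deviate together, with correlations of -0.21 to 0.12 on chow and -0.13 to 0.10 in the HFD mice, and 2 of 8 correlated best with their own number. With the replicate number as a block 3 members were called on chow (Acta2, Dcn and Serping1), against 1.41% of all genes lower. On chow 12 members then had an adjusted p under 0.05 (20.8% of all genes lower), and in the HFD mice none did.

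In OE against Ctrl islets, 3 members were called with the covariate (2.09% of all genes called) and 12 without Ctrl2 and Ctrl3 (5.27%). Without Ctrl1 and Ctrl5 15 of 32 were called, a smaller share than the 63% of all genes. None was called with any 1 library left out (0.0328% to 0.0419% of all genes). Members without overlap numbered 4 with median-of-ratios scaling (6.82% of all genes lower), 5 with acinar scaling (9.51%) and 8 with the heatmap libraries (2%), all lower. Without Ctrl2 and Ctrl3 they numbered 20, all lower (41.4% of all genes). Without Ctrl1 and Ctrl5 they numbered 19, of which 15 were higher (88.1% of all genes) and 4 lower (3.93%). With 1 library left out they numbered 1 to 5, with 1.14% to 1.7% of all genes lower. The median was 0.40 without Ctrl1 and Ctrl5 and -0.71 to 0.0031 with 1 library left out, the highest without Ctrl5. Col4a1, Thbs1 and Serping1 changed sign with median-of-ratios scaling (-0.16, -0.29 and -0.29), acinar scaling (-0.20, -0.33 and -0.32) and the covariate (-0.43, -0.83 and -0.44), and Lamc1 with acinar scaling (-0.026) and the covariate (-0.29). With the heatmap libraries Rgs5, Sparc, Timp3 and Acta2 changed sign (0.14, 0.14, 0.44 and 0.029). With 1 library left out the log2 fold change ran from -1.16 to 0.095 for Rgs5, -0.66 to 0.43 for Sparc, -0.71 to 0.61 for Timp3, -0.33 to 0.70 for Thbs1, -0.13 to 0.93 for Serping1 and -0.037 to 0.82 for Col4a1, each highest without Ctrl5. Without Ctrl2 and Ctrl3, Col4a1, Thbs1, Serping1 and Lamc1 changed sign (-0.78, -1.27, -0.75 and -0.65), and without Ctrl1 and Ctrl5, Rgs5, Sparc, Timp3 and Acta2 did (1.22, 1.13, 1.67 and 0.51). Both settings were chosen after the data were seen. The causes of these changes were not tested. Depth in reads is unknown, so no counting interval limits the low values.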

Other observations

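Matn2, which encodes matrilin 2, a filament-forming protein of the extracellular matrix that is not among the members, followed the same division of the chow libraries as Col5a2 and was chosen after its values were seen. It was 110 FPKM in Flox16, 4.05, 4.46 and 5.02 FPKM in Flox17, Flox20 and Flox21, and 75.7, 76.2, 85.8 and 85.2 FPKM in the cKO libraries, against 1.63 to 8.23 FPKM in Ctrl and 7.06 to 24.8 FPKM in OE libraries. Its log2 fold change between cKO and Flox islets was 2.91 (standard error 1.10, limma adjusted p = 0.103).

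Lists of other cells were counted beside the members. In cKO against Flox islets, where 12.8% of all genes were lower and 1.02% higher at an adjusted p under 0.05, 1 of 10 macrophage markers fell (Cd14, -0.93, limma adjusted p = 0.0221), 5 of 10 β-cell genes fell (Ins2, -0.72, adjusted p = 0.00744), and 1 of 22 acinar genes (Amy1, 1.02, adjusted p = 0.0391) and 1 of 9 duct genes (Muc1, 1.39, adjusted p = 0.0229) rose, with positive values for all 22 acinar genes. Without Flox16, 1 of 10 macrophage, 5 of 10 β-cell, 1 of 9 duct and 1 of 3 Schwann genes fell and 2 of 22 acinar, 2 of 9 duct and 1 of 3 mesothelial genes rose, against 21.3% and 2.95% of all genes, and with median-of-ratios scaling no gene of these lists passed. With all libraries no adipocyte, Schwann or mesothelial gene of 3 tested in each list passed, and none of 10 immediate early genes. In OE against Ctrl islets no gene of these lists passed. Values were negative for 22 of 22 acinar, 9 of 10 macrophage, 5 of 9 duct, 1 of 1 adipocyte, 1 of 3 mesothelial and 2 of 10 immediate early genes, and positive for 10 of 10 β-cell and 3 of 3 Schwann genes.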
